A study of Mus musculus with 2 samples.

Results

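The genes described here are the nuclear-encoded subunits of oxidative phosphorylation in the epithelium of the mouse tongue. They were taken by symbol (Ndufa, Ndufb, Ndufc, Ndufs, Ndufv, Sdh, Uqcr, Cox4i, Cox5, Cox6, Cox7, Cox8 and Atp5, without pseudogenes and assembly factors), which gave 85 of the 32285 genes in the count tables. By complex, 38 belonged to complex I, 4 to complex II, 8 to complex III, 18 to complex IV and 17 to complex V. The rule leaves out Cyc1 of complex III, whose symbol does not start with these letters. Single-cell libraries of sorted living epithelial cells from male B57BL/6 mice aged 8 to 12 weeks, with no transgene or treatment named, had been made at 2 Zeitgeber times, ZT0 and ZT12 (lights on and lights off in the usual convention). There was 1 library per time and the number of mice behind each is not given, so no test of the time of day is possible. All differences below are descriptions of these 2 libraries, and all intervals are 95% intervals that cover counting error only.

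Oxidative phosphorylation is carried out by 5 complexes of the inner mitochondrial membrane. Complex I (NADH dehydrogenase) and complex II (succinate dehydrogenase) pass electrons to ubiquinone, complex III passes them to cytochrome c, and complex IV (cytochrome c oxidase) reduces oxygen. Complex V, the ATP synthase, uses the resulting proton gradient. Each complex except complex II joins subunits encoded in the nucleus to a few encoded in mitochondrial DNA, and several nuclear subunits exist as isoforms that differ between tissues. Tongue epithelium renews from a basal layer, from which daughter cells rise and keratinise, and it bears filiform papillae, which are hair-like keratinised structures.

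The ZT0 library held 1593 cells after filtering, with a median of 28401 UMIs (unique molecular identifiers, each marking 1 captured transcript), and the ZT12 library 2620 cells with a median of 23088. Cells were clustered without the subunit genes, the clock genes and some other sets, and clusters were named from marker genes. Cluster numbers 3, 6 and 7 were basal-like (319 from ZT0 and 492 from ZT12), cluster 8 was cycling-like (188 and 37), clusters 1, 4, 5, 13 and 14 were differentiated-like (491 and 776), and clusters 11 and 15 were filiform-like (116 and 184). Clusters 3, 7, 13 and 14 came over 90% from 1 library. Most basal-like cells were thus in cluster 7 at ZT0, led by S100a9, S100a8 and Ifitm3, and in cluster 3 at ZT12, led by the clock output genes Dbp and Bhlhe41 among others. Cluster 13, from ZT0, was led by interferon-response genes such as Isg15 and Cxcl10. With 37 cycling-like cells at ZT12, values of that class at ZT12 are given for completeness and were below the minimum of 50 cells set for a comparison. Of the cells, 424 at ZT0 and 1088 at ZT12 were in clusters that stayed unnamed. Markers of skeletal muscle, a tissue rich in these subunits, summed to 20.4 and 15.2 CPM (UMIs of a gene scaled to a common library total) over 12 genes. Immune markers summed to 324 and 77.6 CPM over 14 genes, and 20.9 to 31.3 CPM in basal-like cells. The basal markers summed to 26425 and 33676 CPM in basal-like cells, and to 21851 and 22451 in filiform-like cells. Most of the filiform-like sum was Krt14, at 18077 and 18663 CPM, beside 10735 and 12397 in basal-like cells. Krt5 was at 1476 and 1521 CPM in filiform-like cells and at 5238 and 6089 in basal-like cells. The sum alone therefore separates these 2 classes poorly, while single markers differed.

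All 5 complexes were expressed in every class, and 78 of the 85 genes reached the minimum of 5 CPM, averaged over both libraries. The genes below it were all isoforms of complex IV known from other tissues: Cox4i2, Cox6a2, Cox6b2, Cox7a1, Cox7b2, Cox8b and Cox8c. Cox7b2, Cox8b and Cox8c had no UMI in any cell, and the muscle isoform Cox6a2 had 1 UMI in all. Cox7a1, the heart and muscle partner of Cox7a2, was at 0.589 CPM at ZT0 and 0.403 at ZT12, and Cox4i2, the lung isoform of Cox4i1, at 0.467 and 0.194. Their common counterparts were well measured. Cox4i1, a regulatory subunit of complex IV, was at 943 and 969 CPM, Cox6a1 at 229 and 203, Cox6b1 at 458 and 379, Cox7a2 at 413 and 337, and Cox8a at 701 and 595.

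Together the 85 genes took 2.16% of all UMIs at ZT0 and 2.01% at ZT12, a ratio of 0.931 (0.929 to 0.934). The share was lower at ZT12 in each class. In basal-like cells it was 2.04% and 1.91% (ratio 0.934, 0.927 to 0.940), in differentiated-like cells 2.15% and 2.04% (0.951, 0.947 to 0.955), and in filiform-like cells 2.04% and 1.87% (0.919, 0.909 to 0.929). In cycling-like cells it was 2.34% and 2.12% (0.907, 0.893 to 0.920). Of the 14 clusters with at least 20 cells in each library, 13 had a lower share at ZT12, with a median ratio of 0.924. The exception was cluster 16, an unnamed cluster with a median of 1544 UMIs per cell, at 1.12.

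**Figure D1:**
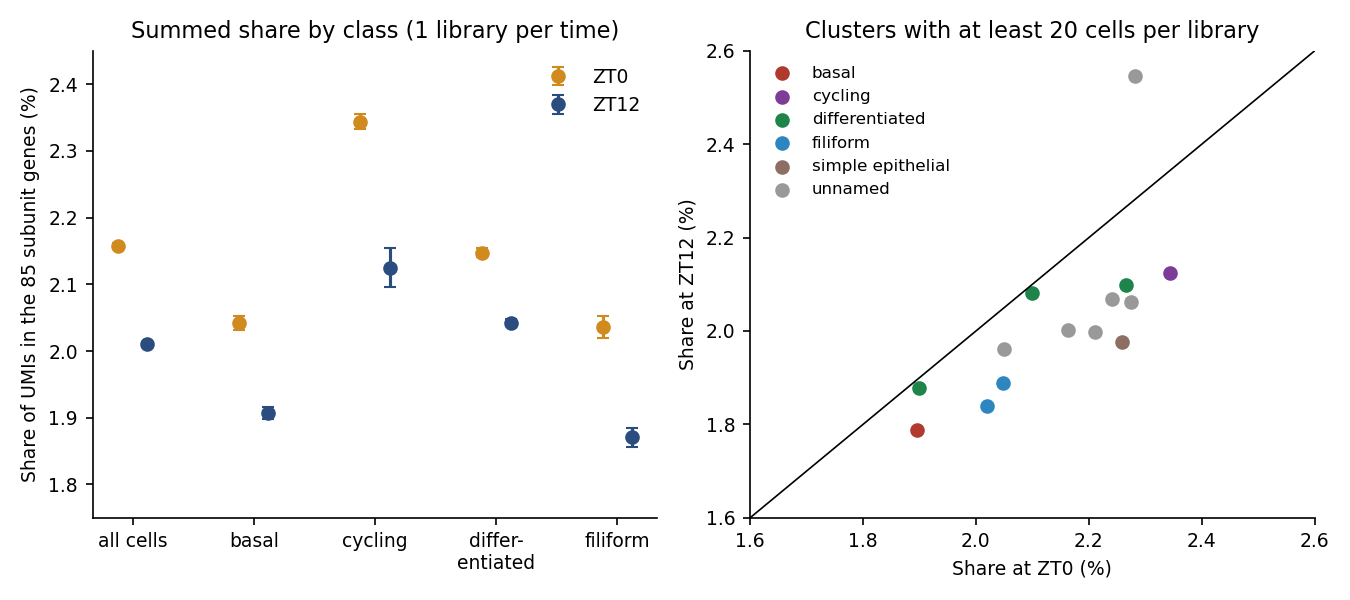
Share of UMIs in the 85 subunit genes, in percent, by class (left; orange ZT0, blue ZT12, bars are 95% counting intervals, the axis does not start at 0) and by cluster with ZT0 on the x axis and ZT12 on the y axis (right; the line marks equal shares). All classes and 13 of the 14 clusters lie lower at ZT12, and cycling-like cells at ZT0 hold the highest class share, 2.34%.

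The difference was small gene by gene. None of the 78 measured subunits differed by 1.5-fold between the libraries over all cells, where 5.85% of all measured genes did in either direction. In basal-like cells 1 of 78 did, Ndufa1 (8.52% of all genes), and 0 did with a stricter cell filter, without the highest doublet scores or at a clustering resolution of 2, in differentiated-like cells 0 (3.08%) and in filiform-like cells 0 (7.71%). In cycling-like cells 5 of 79 did, all lower at ZT12 (10.9% of all genes were lower by that fold). That number rests on 37 cells at ZT12. It was 14 with the stricter cell filter (summed ratio 0.826), 10 without the highest doublet scores and 10 at a resolution of 2 (0.852 in both), 8 with subunits among the clustered genes, and 2 at a resolution of 0.5 or with mitochondrial and ribosomal protein UMIs left out of the total. The share of all genes past the fold was not computed for these alternatives. The median log2 ratio of the 78 subunits was -0.11 over all cells, beside -0.03 for all 9543 measured genes, and 56 were lower and 22 higher. With TMM scaling 43 were lower and 35 higher. It was -0.11 in basal-like cells (all genes -0.03), -0.07 in differentiated-like cells (-0.01) and -0.11 in filiform-like cells (-0.01), where 61 were lower and 17 higher, or 48 and 30 with TMM. Of the 78, 41 were lower at ZT12 in all of these 3 classes and 10 were higher in all 3. Among 8180 genes measured in the 3 classes, 23.9% were lower in all and 19.2% higher in all.

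Complex IV had the lowest ratio. Its share of UMIs was 0.509% at ZT0 and 0.452% at ZT12, a ratio of 0.889 (0.884 to 0.893), and by class it was 0.913 (basal-like), 0.906 (differentiated-like) and 0.877 (filiform-like). Complex III followed at 0.921 (0.914 to 0.928), then complex II at 0.940 (0.922 to 0.958), complex V at 0.942 (0.938 to 0.947) and complex I at 0.955 (0.951 to 0.960). The interval of complex II overlaps those of complexes I, III and V, whereas that of complex IV lies below all others. TMM scaling sets the scale from genes that differ little. With it the ratios were 1.00, 0.987, 0.967, 0.933 and 0.989 for complexes I to V, so that complex I was level. Scaling multiplies the ratios of all complexes by the same factor. The order of the complexes, with complex IV lowest, was therefore fixed in advance and is not tested by TMM. The place of complex I rests on Ndufa4l2: without this gene, an alternative chosen after seeing the data, its ratio was 0.936 (0.931 to 0.940).

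**Figure D2:**
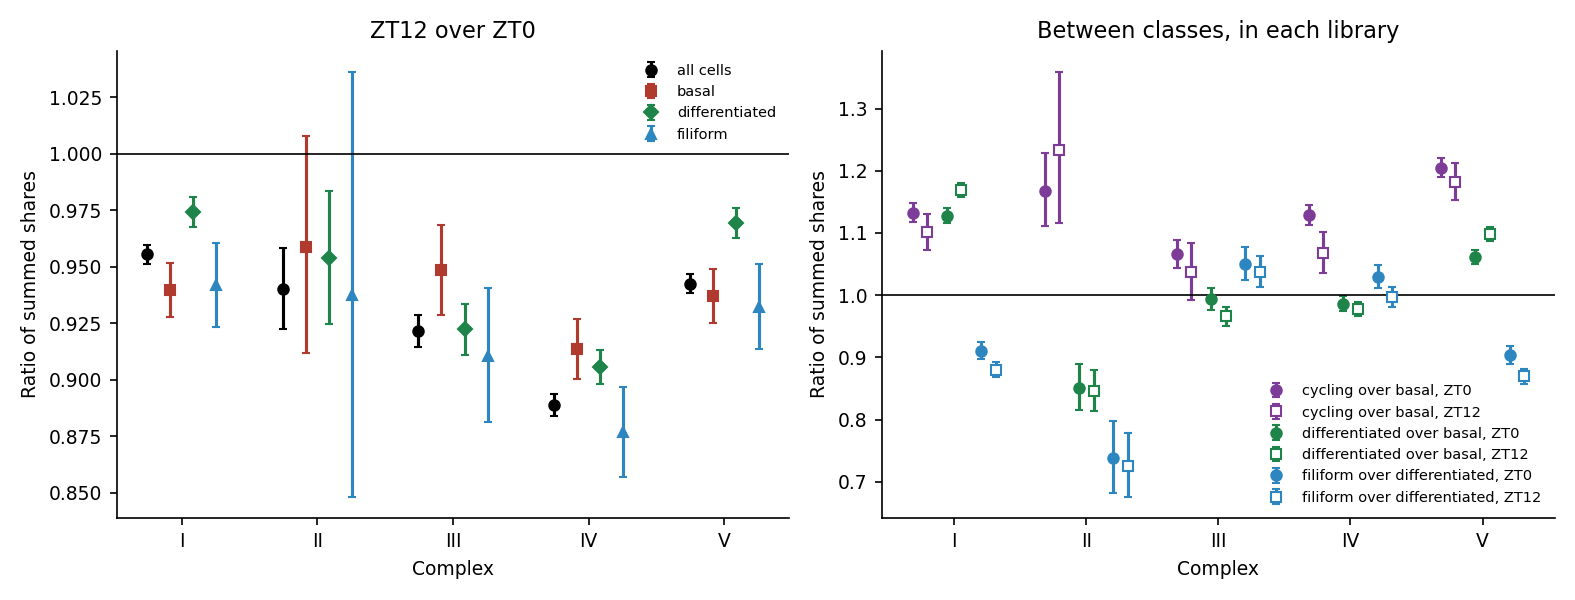
Ratio of summed shares of UMIs by complex, ZT12 over ZT0 (left) and between classes in each library (right; filled symbols ZT0, open symbols ZT12); bars are 95% counting intervals and the line marks a ratio of 1. Complex IV is lowest over all cells at ZT12 (0.889), and complex II is the complex with the lowest ratio in differentiated-like over basal-like cells (0.851 and 0.846).

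Among the subunits of complex I, the 7 core subunits that carry the flavin, the iron-sulphur clusters and the quinone site had a median log2 ratio of 0.06. Ndufs1, the largest of them, was at 56.7 CPM at ZT0 and 64.5 at ZT12, a log2 ratio of 0.18 (ratio 1.14, 1.08 to 1.19). Ndufv1, which binds NADH, was at 166 and 151 CPM, a log2 ratio of -0.14. The 31 other subunits, which surround the core, had a median of -0.12, and 23 of them were lower at ZT12. Ndufa1, a small membrane subunit, was at 94.1 and 68.9 CPM (log2 ratio -0.44), and in basal-like cells at 99.7 and 62.6 (-0.66), the value past 1.5-fold there. Ndufb3 was at 129 and 95.7 CPM (-0.43) and Ndufa3 at 68.7 and 52.4 (-0.39). Ndufa8 went the other way, at 209 and 230 CPM (0.14), and was higher at ZT12 in basal-like, differentiated-like and filiform-like cells (0.25, 0.18 and 0.24).

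The 4 subunits of complex II, which also runs a step of the citric acid cycle, differed little. The catalytic flavoprotein Sdha was at 81.3 CPM at ZT0 and 86.6 at ZT12 (log2 ratio 0.09), and the iron-sulphur subunit Sdhb at 121 and 106 (-0.20). The membrane anchors Sdhc and Sdhd were at 100.03 and 95.4 CPM (-0.07) and at 84.0 and 75.8 (-0.15). Only Sdha was higher at ZT12.

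In complex III the large core proteins and the small subunits differed, and their transcripts also differed in length, as given below. Uqcrc2, a core protein, was at 203 CPM at ZT0 and 221 at ZT12 (log2 ratio 0.12), the Rieske iron-sulphur protein Uqcrfs1 at 173 and 181 (0.06), and the core protein Uqcrc1 at 336 and 326 (-0.04). The small subunits were lower at ZT12, with Uqcr11 at 287 and 224 CPM (-0.36), Uqcrb at 278 and 219 (-0.34) and Uqcrq at 265 and 221 (-0.26). Uqcrh, the hinge protein, was nearly level at 582 and 568 (-0.03).

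Complex IV held the subunit with the lowest ratio of all 78. Cox7c was at 374 CPM at ZT0 and 261 at ZT12, a log2 ratio of -0.52 (ratio 0.697, 0.683 to 0.712), and it was lower in every class, at -0.43 (basal-like), -0.49 (differentiated-like) and -0.49 (filiform-like). Cox6c was at 468 and 363 CPM (-0.37) and the zinc-binding Cox5b at 411 and 331 (-0.31). Cox4i1 (0.04) and Cox5a (433 and 450 CPM, 0.06) were nearly level. Cox7a2l, a relative of Cox7a2, was higher at ZT12, at 343 and 371 CPM (0.11), and in basal-like cells at 500.2 and 617 (0.30).

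In complex V the catalytic head and the small membrane subunits parted, and these groups also differed in transcript length, as given below. Atp5a1 and Atp5b, which form the head that makes ATP, were at 555 and 605 CPM (log2 ratio 0.12) and at 853 and 835 (-0.03). Of the central stalk, Atp5c1 and Atp5d had log2 ratios of 0.03 and 0.08 and the small Atp5e at 399 and 315 CPM (-0.34). The c-ring genes Atp5g1, Atp5g2 and Atp5g3, which encode the same mature protein behind different targeting sequences, were at -0.02, -0.12 and -0.06. All 5 membrane accessory subunits were lower at ZT12 (median -0.34), among them Atp5md at 130 and 98.7 CPM (-0.39), Atp5mpl at 172 and 132 (-0.38) and Atp5k at 190 and 150 (-0.34). The same 5 were lower in basal-like, differentiated-like and filiform-like cells, at medians of -0.47, -0.30 and -0.25.

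Across the 78 subunits the difference between the libraries varied with the length of the transcript. Lengths are the median over each gene's annotated protein-coding transcripts, and the bins were chosen after the values were seen. Over all cells, the 12 subunits with transcripts under 500 nt were all lower at ZT12, and their median log2 ratio was -0.34. Of the 28 with 500 to under 750 nt, 24 were lower (median -0.23). Of the 12 with 750 to under 1000 nt, 7 were lower (-0.03), and of the 26 with 1000 nt or more, 13 were lower (-0.01). The bins under 500 nt and from 750 to under 1000 nt each hold under 20 genes. Spearman's rho between length and log2 ratio was 0.65 across the 78 subunits, a description, since the genes share both libraries. By class it was 0.56 (basal-like), 0.66 (differentiated-like) and 0.48 (filiform-like).

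**Figure D3:**
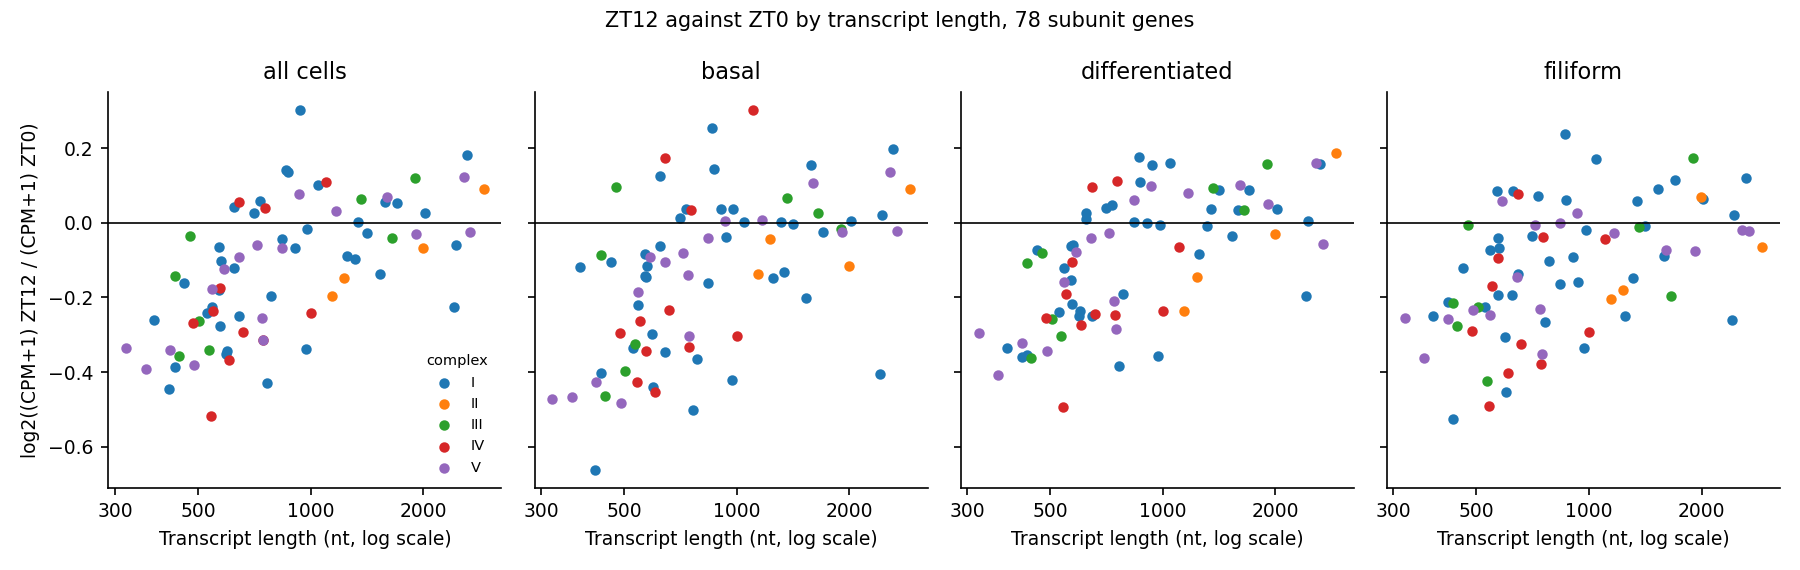
Log2 ratio of CPM plus 1, ZT12 over ZT0, against transcript length (log scale, nt) for the 78 measured subunits, coloured by complex, over all cells and in 3 classes; the line marks equal levels. The points under 500 nt lie below 0 in all cells, and the 26 at 1000 nt or more lie around it (median -0.01).

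Of the 11 measured subunits of complex IV, 8 had transcripts under 750 nt, and so had 17 of 38 in complex I, 0 of 4 in complex II, 5 of 8 in complex III and 10 of 17 in complex V. Within each of complexes I, III, IV and V the shorter group was lower, with medians of -0.22, -0.26, -0.28 and -0.28, beside -0.03, 0.06, 0.04 and 0.03 for the longer group. Complex II, with no short transcript, had a median of -0.11, below those longer groups. Role and length went together. Uqcrc1, Uqcrc2 and Uqcrfs1 had at least 1363 nt and the other subunits of complex III at most 535. Atp5a1 and Atp5b had at least 1916 nt and the membrane accessory subunits at most 747.5. For these groups role and length cannot be told apart. In complex I the core subunits had at least 870.5 nt and the others 382 to 2447.5, and role and length were not separated. Summed over the subunits with 1000 nt or more, the ZT12 to ZT0 ratio was 0.997 over all cells and, by class, 1.01 (basal-like), 1.02 (differentiated-like) and 0.964 (filiform-like). Over all cells the summed ratios below that length were 0.848 (under 500 nt), 0.877 (500 to under 750 nt) and 1.02 (750 to under 1000 nt).

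Genes outside oxidative phosphorylation showed values of the same kind at short lengths. Of 12 cytosolic ribosomal protein genes under 500 nt, 12 were lower at ZT12 (median -0.32), and rho over 89 such genes was 0.59. Of 40 other genes under 500 nt, 31 were lower (-0.22). Over 9214 other genes of all lengths rho was -0.01. Depth per cell also differed between the libraries, as given above, and the part of library preparation in the relation with length was not tested. Between classes within a library, rho over the subunits was of the opposite sign and ran from -0.29 to -0.02.

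Over all cells, the 13 subunits encoded in mitochondrial DNA were all lower at ZT12. Their median log2 ratio was -0.13, with a summed share of 3.57% at ZT0 and 3.35% at ZT12 (ratio 0.938, 0.937 to 0.940). By class, 0 were higher in basal-like and differentiated-like cells, 2 in filiform-like cells and 6 in cycling-like cells. TMM scaling moves log2 ratios over all cells by 0.0702. This exceeds the size of those of mt-Nd4 (-0.0174), mt-Co3 (-0.0351), mt-Atp6 (-0.0525) and mt-Nd5 (-0.0688). mt-Nd3, a short subunit of complex I, was at 409 and 305 CPM (-0.42) and mt-Nd2 at 1490 and 1252 (-0.25). mt-Nd4l overlaps mt-Nd4 and mt-Atp8 overlaps mt-Atp6, so their counts cannot be told apart with certainty. Beside them, the 47 measured assembly factors had a median of 0.00, the 19 citric acid cycle genes 0.01 and the 18 glycolysis genes 0.06, with none of the 3 lists holding a gene past 1.5-fold. Among assembly factors, Cmc2 was at 33.9 and 22.6 CPM (-0.57), Cox20 at 34.2 and 23.6 (-0.52) and Ttc19, which acts on complex III, at 22.7 and 33.1 (0.53). Of the 16 measured regulators of mitochondrial genes, 6 were higher, among them Esrra, the oestrogen-related receptor alpha, at 33.8 and 45.1 CPM (0.41).

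Scaled to total UMIs, cycling-like cells held the highest share among the classes. It was 2.34% against 2.04% in basal-like cells at ZT0, a ratio of 1.15 (1.14 to 1.16), and 2.12% against 1.91% at ZT12, a ratio of 1.11. At ZT0, 5 of 79 measured subunits were at least 1.5-fold higher (14.4% of all genes) and 1 was lower (15.7%). The number past the fold in either direction, 6, was 10 with TMM scaling (summed ratio 1.20) and 10 without the clusters of 1 library (1.24). The share of all genes was not computed for these alternatives. At ZT12 the numbers were again 5 (15.2%) and 1 (15.4%). The median log2 ratio was 0.22 at ZT0 (all genes -0.07) and 0.20 at ZT12 (-0.01), and 62 of the 79 were higher in both libraries, as were 34.5% of all genes. At ZT0, 67 were higher and 12 lower, beside 44.7% of all genes higher. The numbers were 55 and 24 with mitochondrial and ribosomal protein UMIs left out of the total. The ZT12 ratio of summed shares rests on 37 cells: with a filter of at least 1000 genes and under 5% mitochondrial UMIs it was 0.979. With that filter the cycling-like share at ZT12 was thus below the basal-like one. The first rank of cycling-like cells also depends on the scaling. With TMM at ZT0, the summed ratio over basal-like cells was 1.36 for differentiated-like cells, beside the 1.20 for cycling-like cells.

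Over the listed subunits, complex III had the lowest ratio of cycling-like over basal-like cells, 1.07 (1.04 to 1.09) at ZT0 and 1.04 (0.992 to 1.08) at ZT12. It was also lowest at both times without the clusters of 1 library. The symbol rule leaves out Cyc1 of complex III, which was higher in cycling-like cells in both libraries, as given under other observations. The ratio of complex III with Cyc1 was not computed. The highest was complex V at ZT0, 1.20 (1.19 to 1.22), and complex II at ZT12, 1.23 (1.12 to 1.36). Complex I was at 1.13 and 1.10. Without Ndufa4l2, an alternative chosen after seeing the data, it was at 1.19 (1.18 to 1.21) and 1.19 (1.16 to 1.22). At ZT0 that interval overlaps the one of complex V. Without the clusters of 1 library complex II was at 1.32 (1.22 to 1.43) at ZT0, complex I at 1.30 (1.27 to 1.32) and complex V at 1.28, with overlapping intervals. Atp5o, a stalk subunit, was at 532 CPM in cycling-like cells and 356 in basal-like ones at ZT0 (log2 ratio 0.58), and 484 and 345 at ZT12 (0.48). Atp5b was at 1045 and 760 CPM at ZT0 (0.46). In complex I, Ndufb7 was at 183 and 108 CPM at ZT0 (0.76) and 174 and 103 at ZT12 (0.75), and Ndufv1 at 218 and 133 (0.70) and 191 and 116 (0.72). In complex II, Sdhd was at 122 and 90.9 CPM at ZT0 (0.42) and 137 and 88.1 at ZT12 (0.63). Cox5a of complex IV was at 502 and 322 CPM at ZT0 (0.64) and 514 and 363 at ZT12 (0.50), and Cox7a2l was lower in cycling-like cells at both times (-0.49 and -0.43). The 13 mitochondrially encoded subunits did not share the difference at ZT0, where their summed ratio was 0.878 (0.873 to 0.882), beside 0.982 at ZT12.

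Cox6b2, the testis isoform of the complex IV subunit Cox6b1, had its highest level in cycling-like cells among the 4 classes. It was at 14.96 CPM in cycling-like cells at ZT0, from 105 UMIs, and at 13.6 at ZT12, from 13 UMIs. In basal-like cells it was at 3.18 and 1.82 CPM, and in differentiated-like cells at 0.097 and 0.252. Within the basal-like class, cluster 6 was at 6.58 and 0.893 CPM. The unnamed clusters 2 and 9 were at 8.54 and 4.33 and at 7.59 and 4.45. Of the 81 UMIs at ZT12, 23 were in cluster 2 and 14 in the basal-like cluster 3. At ZT0, 32.4% of cycling-like cells had a UMI of it, against 6.27% of basal-like and 0.407% of differentiated-like cells, where the median cell held 38614, 21239 and 41034 UMIs. With cells thinned to 10000 UMIs these shares were 15.9%, 2.62% and 0.211%. In filiform-like cells, 2 of 116 had a UMI at ZT0 (1.72%, at 1.08 CPM), and none of 184 did at ZT12. This allows a share of cells with a UMI of up to about 1.63%, taken as 3 over the number of cells and not as an exact interval. Over all cells its level was 3.82 CPM at ZT0 and 1.21 at ZT12, with 188 and 37 cycling-like cells in the libraries.

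Differentiated-like cells held a slightly higher share than basal-like cells, with ratios of 1.05 (1.05 to 1.06) at ZT0 and 1.07 (1.07 to 1.08) at ZT12. At ZT0, 3 of 78 subunits were at least 1.5-fold higher (11.3% of all genes) and 2 lower (29.4%). At ZT12, 4 were higher (12.5%) and 2 lower (30.5%). Without the clusters of 1 library, 8 and 11 were past the fold (summed ratios 1.13 and 1.12). The median log2 ratio of the subunits was 0.15 at ZT0 and 0.20 at ZT12, while that of all genes was -0.25 and -0.23. Of the 78, 57 were higher at ZT0 and 62 at ZT12, beside 32.9% and 36.1% of all genes. In both libraries 57 were higher, and 29.6% of all genes were. This comparison depends on the scaling. With TMM scaling, which moves all log2 ratios by 0.38 in both libraries, the summed ratios were 1.36 and 1.40, and with mitochondrial and ribosomal protein UMIs left out of the total they were 1.00 and 1.02. With TMM 74 of the 78 were higher at ZT0 and 71 at ZT12, and 28 and 40 were past 1.5-fold. The share of all genes past the fold was not computed with TMM or without the clusters of 1 library. The gap between the subunits' median and that of all genes was 0.41 and 0.43 with the total and 0.42 and 0.44 with TMM. Scaling shifts both medians nearly alike, so the likeness of these gaps was fixed in advance.

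The complexes differed among themselves in this contrast. Complex I had a ratio of 1.13 (1.12 to 1.14) at ZT0 and 1.17 (1.16 to 1.18) at ZT12, with 31 of its 38 subunits higher in both libraries. Complex V had 1.06 and 1.10. Complexes III and IV were near 1, at 0.993 and 0.966, and at 0.986 and 0.978. Complex II had 0.851 (0.815 to 0.889) and 0.846 (0.814 to 0.880), with all 4 subunits lower in both libraries. With TMM scaling complex II was at 1.10 in both. A change of scaling multiplies the ratios of all 5 complexes by the same factor, so it cannot change their order. Without the clusters of 1 library complex II was at 0.944 (0.872 to 1.02) and 0.916 (0.851 to 0.988), and complex IV at 1.04 and 1.01.

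Uqcrq, a small subunit of complex III, had the highest ratio of differentiated-like over basal-like cells, at 311 and 189 CPM at ZT0 (log2 ratio 0.71) and 260 and 143 at ZT12 (0.86). Ndufs6, Ndufc1 and Ndufa8 of complex I were also higher at ZT0 (0.60, 0.55 and 0.63). Cox7a2l was lowest, at 252 CPM in differentiated-like cells and 500.2 in basal-like ones at ZT0 (-0.99), and 241 and 617 at ZT12 (-1.35). The core protein Uqcrc1 was at 255 and 436 CPM at ZT0 (-0.77) and 261 and 445 at ZT12 (-0.76). Cox7a2l and Uqcrc1 were lower under each scaling, at -0.61 and -0.40 with TMM at ZT0 and at -0.97 and -0.38 at ZT12. Cox4i1 was at 801 and 1119 CPM at ZT0 (-0.48) and at -0.10 with TMM.

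**Figure D4:**
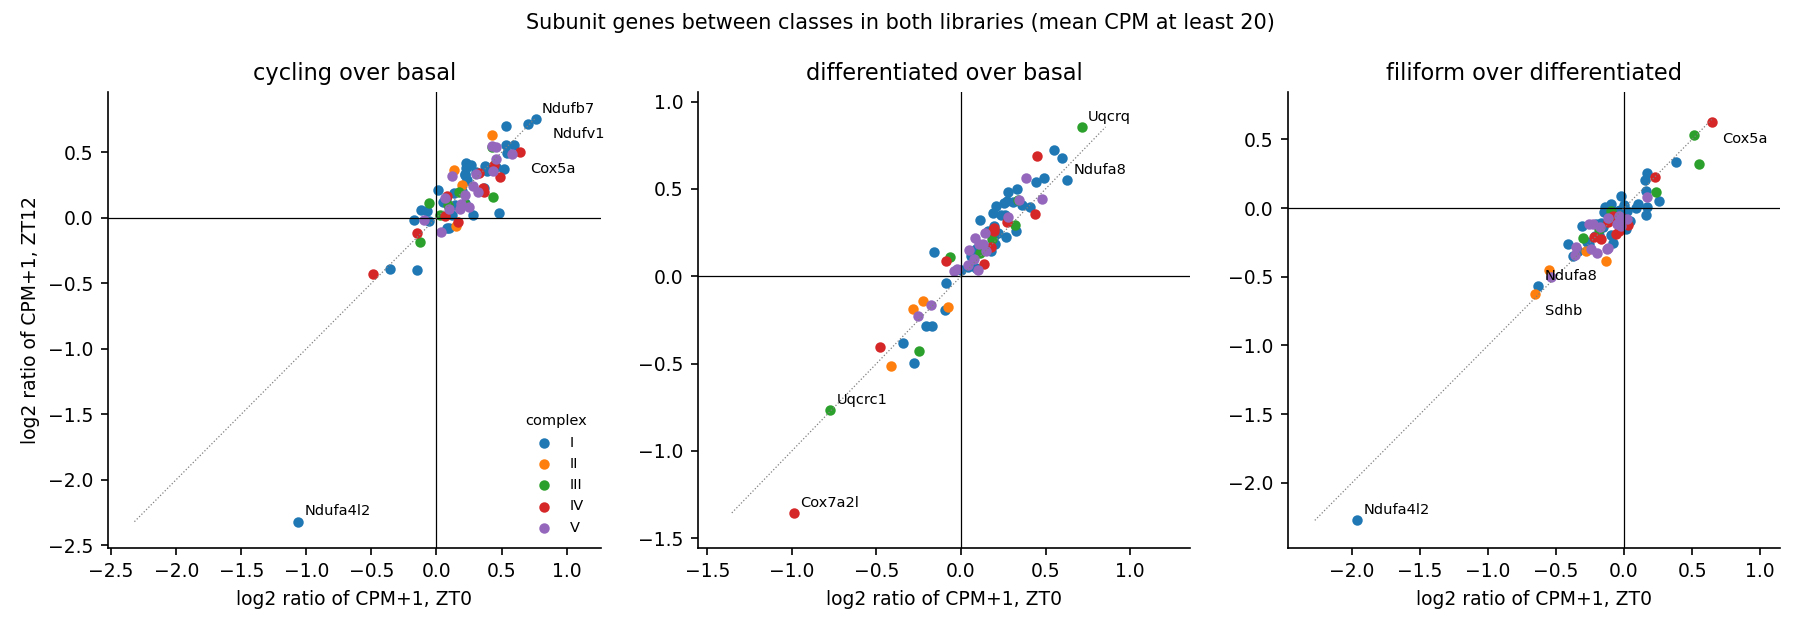
Log2 ratio of CPM plus 1 between classes at ZT0 (x axis) against ZT12 (y axis) for subunits with a mean of at least 20 CPM at ZT0, coloured by complex; the dotted line marks equal ratios and genes beyond 0.6 at ZT0 are named. Cox7a2l (-0.99 and -1.35) and Uqcrc1 (-0.77 and -0.76) stand lowest in differentiated-like over basal-like cells, and Ndufa4l2 (-1.96 and -2.27) in filiform-like over differentiated-like cells.

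Filiform-like cells held a lower share than differentiated-like cells, with ratios of 0.948 (0.940 to 0.956) at ZT0 and 0.916 (0.909 to 0.923) at ZT12. At ZT0, 4 of 78 subunits were past 1.5-fold, 1 higher and 3 lower, beside 25.8% of all genes in either direction. At ZT12, 3 were, 1 higher and 2 lower, beside 25.5%. At a clustering resolution of 0.5, 1 was at each time. Of the 78, 52 were lower in both libraries, as were 34.7% of all genes. At ZT0, 56 were lower and 22 higher, where 56.4% of all genes were higher. With TMM the numbers were 65 and 13, and the median of all genes moved from 0.07 to -0.07. At ZT12, 61 were lower and 17 higher, where 55.7% of all genes were higher, or 69 and 9 with TMM. Complex II was again lowest, at 0.738 (0.683 to 0.797) and 0.725 (0.676 to 0.778). Sdhb was at 73.2 CPM in filiform-like and 116 in differentiated-like cells at ZT0 (log2 ratio -0.66) and at 63.4 and 98.4 at ZT12 (-0.63). Complex V was at 0.904 and 0.869, with Atp5g1 at -0.53 and -0.50. Complex III was slightly higher (1.05 and 1.04), led by the core proteins Uqcrc1 (0.55 and 0.32) and Uqcrc2 (0.52 and 0.53), but was below 1 with TMM scaling (0.949 and 0.962). The filiform-like clusters differed in both genes. Uqcrc1 was at 489 and 458 CPM in cluster 15 and 294 and 253 in cluster 11, beside 255 and 261 in differentiated-like cells. Uqcrc2 was at 199 and 207 CPM in cluster 15 and 334 and 374 in cluster 11, beside 194 and 216. Cox5a, which binds next to Cox4i1, was at 681 and 435 CPM at ZT0 (0.64) and at 719 and 466 at ZT12 (0.62), and was higher under each scaling.

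The subunit that varied most was Ndufa4l2, a relative of Ndufa4 known as a target of the hypoxia-inducible factor HIF-1. Both are grouped with complex I by their symbols, though Ndufa4 is now assigned to complex IV. Over all cells Ndufa4l2 was at 455 CPM at ZT0 and 561 at ZT12 (log2 ratio 0.30). In differentiated-like cells it was at 618.3 and 689 CPM, and at 479.8 and 692 without clusters 13 and 14. Across the 14 clusters with at least 20 cells in each library its level ran from 7.99 to 1182 CPM at ZT0 and from 21.7 to 1382 at ZT12. Over the same clusters the median subunit differed 1.72-fold between its highest and lowest cluster at ZT0 and 1.78-fold at ZT12, and the next most variable, Cox7a2l, 3.53-fold and 3.65-fold.

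The clusters with high and low Ndufa4l2 were nearly the same at both times. Cluster 5, led by the late differentiation genes Crct1, Lor and Cnfn, was highest, at 1182 and 1382 CPM, followed by the unnamed cluster 10 (1015 and 979.9). Cluster 11, which is filiform-like, was lowest at ZT0, at 7.99 CPM, beside 21.7 at ZT12, and the unnamed cluster 2, whose leading genes include Mcm3 and Hells, was at 13.6 and 27.1. The other filiform-like cluster, cluster 15, was at 369 and 352 CPM. Within the differentiated-like class cluster 1 was at 30.4 and 25.8 CPM, so the class does not have a level of its own. Within the basal-like class cluster 6 was at 72.9 and 52.7, cluster 7 at 725 (ZT0) and cluster 3 at 688 (ZT12). The ratio of cycling-like over basal-like cells for Ndufa4l2 therefore turned on clusters 3 and 7: its log2 value was -1.06 at ZT0 and -2.32 at ZT12 with them, and 1.80 and 0.96 with basal-like cells of cluster 6 only.

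Ndufa4 tended to be lower where Ndufa4l2 was higher. Across 16 clusters with at least 20 cells, Spearman's rho between their levels was -0.74 at ZT0 and -0.69 at ZT12, a description of clusters that share 1 library. Cluster 5 had Ndufa4 at 260 and 262 CPM, its lowest, and cluster 17, a simple-epithelium-like cluster marked by Krt8 and Ltf, had the highest, at 751 and 810, with Ndufa4l2 at 36.1 and 27.3. Cox7a2l followed another order. It was at 555 and 646 CPM in cluster 2 and 483 and 532 in cluster 6, and at 157 and 177 in cluster 11, and its levels and those of Uqcrc1 had a rho of 0.66 and 0.67 over the 16 clusters.

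**Figure D5:**
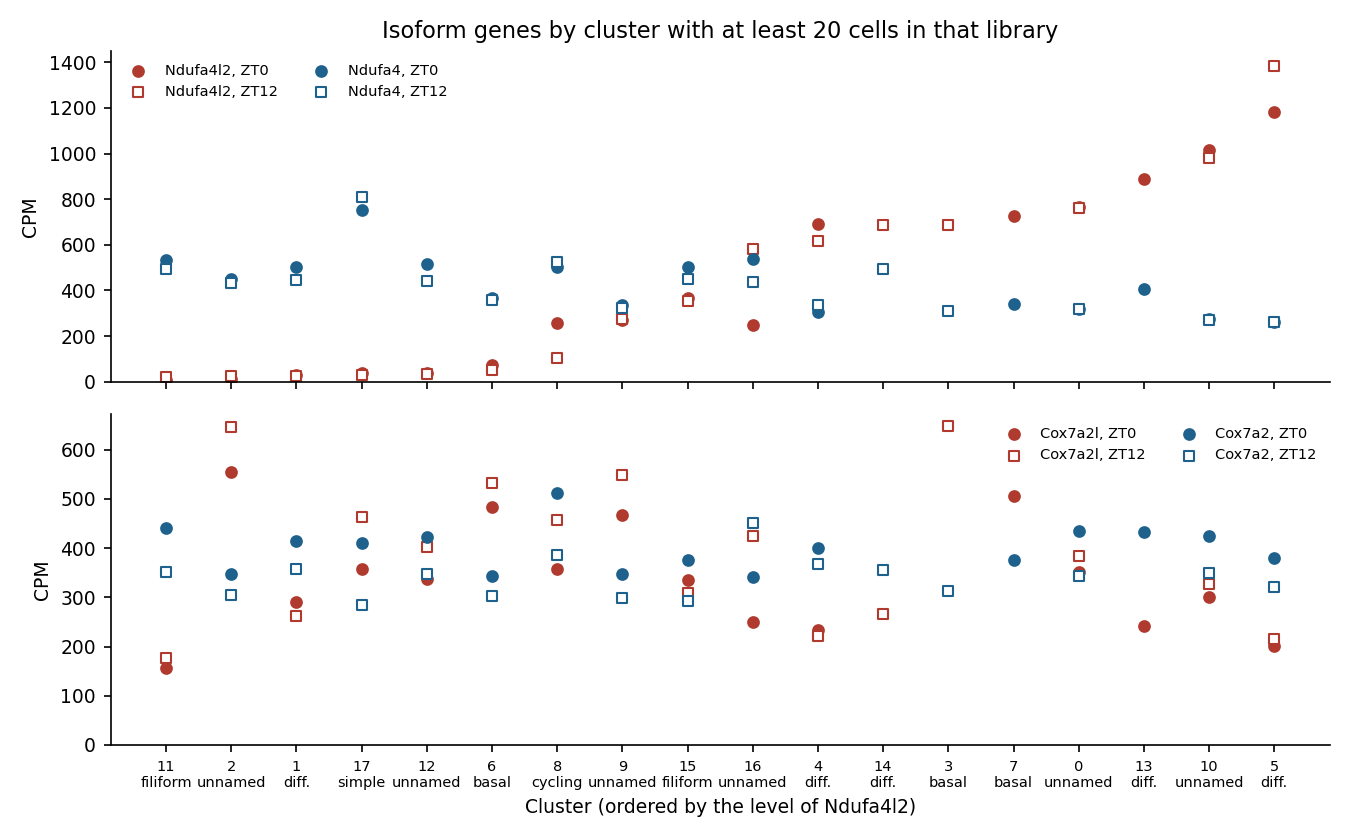
CPM of Ndufa4l2 and Ndufa4 (top) and of Cox7a2l and Cox7a2 (bottom) in clusters with at least 20 cells in the library, ordered by the mean level of Ndufa4l2; filled circles are ZT0 and open squares ZT12. Ndufa4l2 runs from 7.99 CPM in cluster 11 to 1382 in cluster 5, while Ndufa4 stays between 260 and 810.

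The promoters of the subunits are shown because nuclear respiratory factor 1 (NRF1) is a known activator of many of them and because CLOCK and BMAL1, the activators of the circadian clock, bind E-boxes. The windows, from RefSeq on GRCm38.p6, run from 250 bases before to 50 after the annotated start, and 69 of the 85 genes were matched, 1 of them by synonym. Motifs were searched on both strands as exact letters. The palindromic NRF1 motif, in capitals below, was in the window of 5 matched subunit genes (7.25%, beside 1.07% of 27025 genes), the ETS core CCGGAAG in 17 (24.6%, beside 9.93%), the YY1 motif AAGATGGC in 10 (14.5%, beside 3.19%) and the E-box CACGTG in 6 (8.70%, beside 8.09%). None of these motifs holds another, and the table of all genes includes non-coding ones. The stretches before the start that hold NRF1 letters follow, with the motif in capitals and each read on the gene's strand. They lie at chr5:108434425-108434464 (minus strand, Atp5k), chr5:115349096-115349135 (minus, Cox6a1), chr15:102671065-102671104 (minus, Atp5g2) and chr17:56717687-56717726 (plus, Ndufa11).
Atp5k: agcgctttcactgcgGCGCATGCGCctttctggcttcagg
Cox6a1: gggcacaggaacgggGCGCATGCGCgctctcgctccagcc
Atp5g2: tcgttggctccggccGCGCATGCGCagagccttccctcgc
Ndufa11: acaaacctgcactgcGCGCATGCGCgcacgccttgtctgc
The fifth match, in Uqcrc1, lies after the start and is not printed. The log2 ratios of ZT12 over ZT0 for these genes ran from -0.34 (Atp5k) to -0.04 (Uqcrc1), with a median of -0.18, beside -0.11 for the 60 measured genes without the motif.

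E-box letters before the start are shown for the 3 subunit genes that follow, at chr11:96075655-96075690 (minus strand, Atp5g1), chr9:44920869-44920904 (minus, Atp5l) and chr17:33824485-33824520 (plus, Ndufa7), with the E-box in capitals.
Atp5g1: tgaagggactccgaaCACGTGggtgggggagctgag
Atp5l: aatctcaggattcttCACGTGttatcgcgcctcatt
Ndufa7: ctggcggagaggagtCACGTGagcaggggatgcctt
The other 3 were Atp5g3, Atp5f1 and Ndufv1. The log2 ratios of ZT12 over ZT0 for the 6 ran from -0.24 (Ndufa7) to 0.07 (Atp5f1), with a median of -0.10, beside -0.12 for the 59 measured genes without the letters. A match describes letters in a window and not binding.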

How the data were processed

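The deposited files hold whole-number UMI counts per gene and cell barcode, which the authors made with Cell Ranger: version 2.1.1 on mm10 per the submitters' processing notes, and 4.0.0 per the file headers. Cells were sorted as living epithelial cells and sequenced with a 10x 3' kit, per the labels' protocols.

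Cells with at least 500 genes and under 10% mitochondrial counts were kept. Scrublet, run through scanpy 1.11.5, marked 4 and 8 cells, so doublets were in effect not removed. The libraries shared 2 barcodes. Cells were clustered on 2000 variable genes without the subunits (30 components, leidenalg 0.10.2, resolution 1). Clock genes (Dbp and Bhlhe41 among them), immediate early, sex-linked, mitochondrial, ribosomal protein and heat-shock genes were also left out of the variable genes. Clusters were named from marker lists by a scoring rule chosen after the clusters were seen. Counts were summed per class and library and given as CPM and log2 ratios with a pseudocount of 1. A gene was measured at a mean of at least 5 CPM and called at 1.5-fold. Intervals are exact binomial at 95%. edgeR 4.0.16 gave TMM factors only, and no test was run, since each time has 1 library.

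The members and lists were chosen with earlier results of these data known. Named genes were, for each comparison and complex, up to 3 with the largest log2 ratio at a mean of at least 20 CPM, the tissue isoforms, and up to 3 genes per pathway list. Further subunits were named to fill out each complex after their values were seen.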

Additional observations from a re-analysis of the deposited data

Results flagged for a closer look

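For 2 subunits the difference between ZT12 and ZT0 had opposite directions in 2 classes, with counting intervals on either side of 1. Whether the classes differ was not tested, since there is 1 library per time. Cox7a2l, the relative of Cox7a2, was higher at ZT12 in basal-like cells (ratio 1.23, 1.18 to 1.29) and lower in differentiated-like cells (0.956, 0.922 to 0.991). Uqcrh, the hinge protein of complex III, was higher in basal-like cells (1.07, 1.03 to 1.11) and lower in differentiated-like cells (0.945, 0.921 to 0.968). Without the clusters that came from 1 library, the basal-like ratio was 1.10 (1.01 to 1.20) for Cox7a2l and 1.01 (0.938 to 1.09) for Uqcrh.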

How the results depend on the processing

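No paired analysis was possible because each time has 1 library. With 1 library per time, spread between animals is unknown. Values below are summed share ratios and numbers of subunits past 1.5-fold, with comparisons named as numerator over denominator. The share of all genes past the fold was computed for the main setting only, so the numbers below have none beside them. With TMM scaling, ZT12 over ZT0 was 0.978 (all cells), 0.941 (basal-like), 0.962 (differentiated-like) and 0.954 (filiform-like). Between classes it was 1.20 (cycling over basal, ZT0; 10 past the fold), 1.36 and 1.40 (differentiated over basal, ZT0 and ZT12; 28 and 40), and 0.856 and 0.849 (filiform over differentiated). With mitochondrial and ribosomal protein UMIs left out, the time ratios were 0.924, 0.919 and 0.931 (all, basal-like, differentiated-like). The class ratios were then 1.07, 1.00 and 1.02 (3 past the fold at ZT0 for differentiated over basal), and 0.887 and 0.878. At the lower of both fold thresholds tried, the numbers were 14, 20, 10 and 10 by time, 31 for cycling over basal, 21 and 31 for differentiated over basal, and 14 and 13 for filiform over differentiated. With no minimum CPM, 1 was past the fold in all cells and 1 in filiform-like cells.

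Over subunits of at least 1000 nt, an alternative chosen after seeing the data, the time ratio was 0.997 in all cells and 0.964 in filiform-like cells, and changed direction in basal-like (1.01), cycling-like (1.01) and differentiated-like cells (1.02). With the stricter cell filter (1000 genes, 5% mitochondrial UMIs), basal-like cells had 0.941 with 0 past the fold, cycling over basal 1.11 at ZT0 and 0.979 at ZT12, and differentiated over basal 1.03 and 1.04. Without the highest doublet scores, basal-like cells had 0 past the fold, filiform-like cells a ratio of 0.932, cycling over basal 1.12, differentiated over basal 1.03 and 1.05, and filiform over differentiated 0.926 at ZT12. At resolution 2, basal-like cells had 0.945 with 0 past the fold, filiform-like cells 1 past the fold, cycling over basal 1.13, differentiated over basal 1.02 at both times, and filiform over differentiated 0.982 and 0.951. At resolution 0.5, differentiated-like cells had 0.946, differentiated over basal 1.06 at ZT12, and filiform over differentiated 0.975 and 0.951 with 1 past the fold at each time. With subunits among the clustered genes, basal-like cells had 0 past the fold, differentiated-like cells 0.943, cycling over basal 1.12, differentiated over basal 1.03 and 1.04, and filiform over differentiated 0.925 at ZT12. Without clusters of 1 library, basal-like cells had 0.944 with 2 past the fold, differentiated-like cells 0.941, cycling over basal 1.24 with 10, differentiated over basal 1.13 and 1.12 with 8 and 11, and filiform over differentiated 0.930 at ZT12. As a mean over cells, differentiated-like cells had 0.947, filiform-like cells 0.938 with 1 past the fold, cycling over basal 1.18, differentiated over basal 1.08 and 1.09, and filiform over differentiated 0.940 at ZT12. The cause of these differences was not tested.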

Other observations

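Other mitochondrial genes also differed between classes, given as log2 ratios at ZT0 and ZT12. In cycling-like over basal-like cells, cytochrome c (Cycs) was at 0.88 and 0.78, Cyc1 of complex III at 0.64 and 0.65, and the citric acid cycle enzymes Idh2 at 1.03 and 0.62 and Fh1 at 0.71 and 0.66. In differentiated-like over basal-like cells, Chchd10 was at 1.77 and 1.97 and Higd1a, a hypoxia-induced factor of the respiratory chain, at 1.31 and 1.05. These genes were picked from their lists for their size. Of the 16 carriers and other subunits, 3 were at least 1.5-fold higher in cycling-like cells in each library, and so were 4 of the 19 citric acid cycle genes, beside 14.4% and 15.2% of all genes. In differentiated-like over basal-like cells, 8 of the 16 were higher at ZT0 and 10 at ZT12, with medians of 0.02 and 0.14. At least 1.5-fold higher were 2 and 5 (11.3% and 12.5% of all genes). In each library 1 was lower by that fold (29.4% and 30.5%).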
